A study of Mus musculus with 54 samples.

Results

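CTCF occupancy was compared between stem cells of the embryonic type (ESCs) and the neural progenitors (NPCs) derived from them, in which CTCF without zinc finger 1 (ΔZF1) had replaced the endogenous protein. The comparison rests on 8 of the 54 samples of the series, namely 4 CTCF chromatin immunoprecipitation (ChIP-seq) libraries of ESC-ΔZF1 and 4 of NPC-ΔZF1. Their 8 peak lists hold 158313 peaks, and peaks overlapping by at least 1 bp were merged into 55482 sites. The cells of these 8 libraries came from the mouse ESC line E14. They carried an auxin-inducible degron on both endogenous CTCF alleles (CTCF-AID2), the F-box protein OsTIR1(F74G) that the degron needs, and a doxycycline-inducible transgene for the tagged ΔZF1 protein. Both cell types were kept with 5-Ph-IAA, an auxin analog, at 1 µM and with doxycycline at 1 µg/ml for 24 hours, which removes the endogenous protein and induces the mutant. The NPCs were taken at 2 days of differentiation, and the ESCs were kept undifferentiated. The ΔZF1 rescue line is a single clone, so clone and genotype cannot be told apart. The rescue with full-length CTCF (WT), also 1 clone with the same degron and treatment, served as the reference where it is named. Parental E14 NPCs, used for the motif and for comparison, had neither degron nor transgene. No 5-Ph-IAA or doxycycline is listed for them.

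CTCF is a DNA-binding protein with a row of zinc fingers, of which the central fingers read a GC-rich core motif. Together with the ring-shaped cohesin complex, whose subunits include Smc3 and Rad21, it anchors chromatin loops and marks domain boundaries. The first zinc finger binds RNA and lies outside the fingers that contact the core motif. The study made these libraries to compare CTCF binding between ΔZF1 and WT. The comparison described here is the one between the cell types within the mutant.

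Many sites, though not all, hold the CTCF core motif, and the sequences printed just below were taken from sites that do. The motif learned from CTCF peaks of parental E14 NPCs read NCCANNAGNGGGCGNNN, and it was searched on both strands within 50 bp of each peak summit. A match needed a score that 1% of windows 1000 bp away from the peaks reach. The sequences below are windows of 61 bp of build mm10 (GRCm38) in the motif's orientation, with the motif in capitals. They show 3 sites called in all 8 libraries, at the exon of Gdf15 (chr8:70629870-70629930, minus strand), in an intron of Rap1gap (chr4:137724934-137724994, plus strand) and just upstream of Nipsnap2 (chr5:129724937-129724997, minus strand). They also show 4 sites called in all ESC-ΔZF1 and no NPC-ΔZF1 libraries, in an intron of Stard13 (chr5:151055852-151055912, minus strand), in an exon of Msrb3 (chr10:120861338-120861398, plus strand), near 4930470P17Rik (chr2:170611975-170612035, minus strand) and in an intron of 1700065J11Rik (chr6:35334482-35334542, minus strand).
Gdf15: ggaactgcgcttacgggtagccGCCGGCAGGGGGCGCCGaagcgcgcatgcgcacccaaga
Rap1gap: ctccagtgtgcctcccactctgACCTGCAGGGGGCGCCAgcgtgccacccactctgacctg
Nipsnap2: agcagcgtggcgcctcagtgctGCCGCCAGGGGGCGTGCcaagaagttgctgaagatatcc
Stard13: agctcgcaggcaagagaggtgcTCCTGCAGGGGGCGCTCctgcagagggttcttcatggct
Msrb3: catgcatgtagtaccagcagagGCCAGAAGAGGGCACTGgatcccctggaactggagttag
4930470P17Rik: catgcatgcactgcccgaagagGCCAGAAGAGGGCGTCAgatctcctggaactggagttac
1700065J11Rik: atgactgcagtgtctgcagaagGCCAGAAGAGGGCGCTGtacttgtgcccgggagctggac
The last 3 share the word CCAGAAGAGGGC, to which the account returns below. Over all sites called in all ESC-ΔZF1 and no NPC-ΔZF1 libraries it made up 23 of 89 motifs. The printed sequences therefore overstate how common it is.

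The libraries differed in length and depth within each cell type, and these differences touch every count that follows. The ESC-ΔZF1 lists held 45941, 17092, 15779 and 16413 peaks for replicates 1 to 4, and the NPC-ΔZF1 lists held 13639, 10242, 5755 and 33452. The longest ESC and the longest NPC list were thus different replicate numbers, and the groups overlapped. The mean log2 number of peaks was 14.37 ± 0.74 (SD, n = 4) in ESC-ΔZF1 and 13.64 ± 1.06 (SD, n = 4) in NPC-ΔZF1. The difference of -0.73 was smaller in size than either SD. An exact permutation test over libraries, two-sided, gave p = 0.314, where the smallest p that 4 against 4 allows is 0.0286. With same-numbered replicates paired, an exact sign-flip test gave p = 0.375, where the smallest possible is 0.125. Without NPC-ΔZF1 replicate 4 the difference was -1.19 and the exact permutation p was 0.0286, the smallest value that 4 against 3 libraries allow. The lowest background coverage at the peaks of a library, derived from their fold and p, served as a relative measure of depth. In both cell types it was 1.14 or more, and at most 2.39, fragments per bp for replicates 1 and 4, whereas replicates 2 and 3 ranged from 0.392 to 0.526. In WT cells the mean log2 number of peaks was 14.44 ± 0.79 (SD, n = 4) in ESCs and 14.44 ± 0.43 (SD, n = 4) in NPCs. No difference between genotypes in the change with cell type was called (difference of -0.73, exact permutation test of the interaction, p = 0.369).

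**Figure D1:**
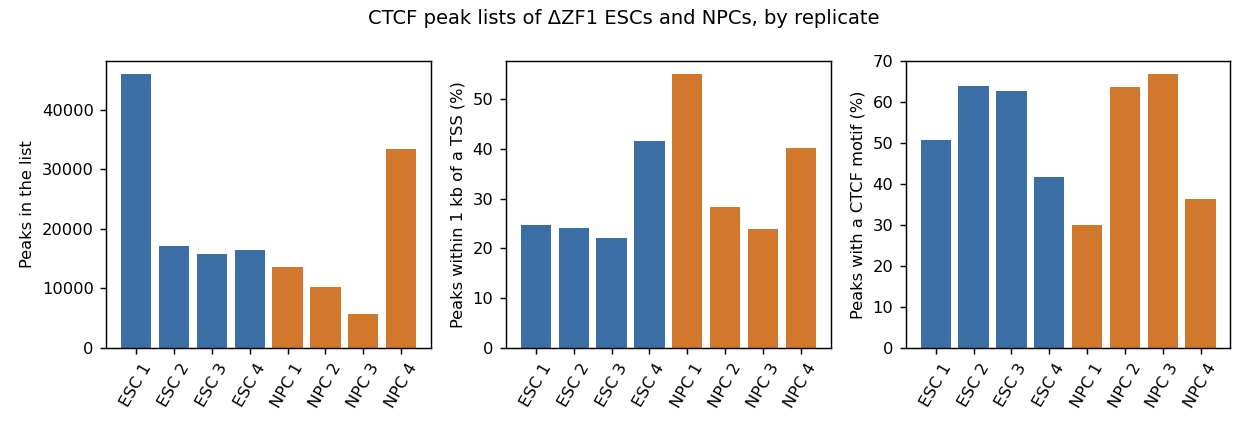
Number of peaks, percentage of peaks within 1 kb of a transcription start site (TSS) and percentage of peaks with a CTCF motif in each of the 8 ΔZF1 lists, as bars for ESC (blue) and NPC (orange) replicates 1 to 4. The lists ran from 5755 to 45941 peaks, and in all 3 panels the cell types overlap.

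The makeup of the lists varied as widely. Between 22.1% and 41.6% of ESC-ΔZF1 peaks and between 23.8% and 54.9% of NPC-ΔZF1 peaks lay within 1 kb of a TSS. The means were 28.1% ± 9.06 and 36.8% ± 13.9 (SD, n = 4 each; exact permutation test, p = 0.314). Their difference of 8.73 percentage points was 2.69 without NPC-ΔZF1 replicate 1 and 13.2 without ESC-ΔZF1 replicate 4. A CTCF motif lay at 54.8% ± 10.5 of ESC-ΔZF1 peaks and at 49.2% ± 18.7 of NPC-ΔZF1 peaks (SD, n = 4 each; exact permutation test, p = 0.629). NPC-ΔZF1 replicate 1 had the most TSS peaks and the fewest motifs, 54.9% and 30.0%. Pairs of libraries of the same cell type shared on average 0.307 of their sites (Jaccard index) and pairs of different cell types 0.315 (exact permutation test, one-sided, p = 0.571). Pairs with the same replicate number occur only between cell types, and without them the mean between cell types was 0.304, so that the direction turned (difference of 0.0030, exact test swapping cell types within replicate numbers, one-sided, p = 0.5; the smallest p it allows is 0.125). The most similar pairs of the whole set joined an ESC with an NPC library. Replicates numbered 2 had an index of 0.498, whereas ESC-ΔZF1 replicate 1 and NPC-ΔZF1 replicate 4, the longest lists, had one of 0.471.

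No site was called in every NPC-ΔZF1 and no ESC-ΔZF1 library, and the opposite pattern was rare. Of 2519 sites called in all 4 NPC-ΔZF1 libraries, 0 (0%) were called in no ESC-ΔZF1 library. Of 6730 sites called in all 4 ESC-ΔZF1 libraries, 129 were called in no NPC-ΔZF1 library, or 1.92%. The other sites of the 6730 were spread over the NPC libraries, with 604 called in 1, 1582 in 2, 2135 in 3 and 2280 in all 4 of them. Sites called in every NPC-ΔZF1 library were almost always ESC sites too, since 2280 of 2519 (90.5%) were called in all 4 ESC-ΔZF1 libraries and 209 more in 3 of them. A missing peak means that the site did not reach the caller's threshold in that library, and not that CTCF was absent.

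Taking the same number of peaks from every library brought both counts closer. The 5755 peaks of smallest q value, not of highest fold, were taken from each list, 5755 being the length of the shortest. Then 15 of 2289 sites (0.655%) were called in all 4 ESC-ΔZF1 and no NPC-ΔZF1 libraries, and 3 of 1576 (0.19%) showed the opposite pattern. In WT cells the corresponding counts were 32 of 8366 ESC and 40 of 8864 NPC sites with all peaks. At the same equal number they were 66 of 2952 and 50 of 2606. Restricted to the deeper replicates 1 and 4, 1439 sites were called in both ESC-ΔZF1 and neither NPC-ΔZF1 library and 880 the other way. In replicates 2 and 3 these counts were 2445 and 56. A call in both libraries of such a set is a looser rule than a call in all 4. These counts, for which no share was computed, are therefore not comparable with those above.

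**Figure D2:**
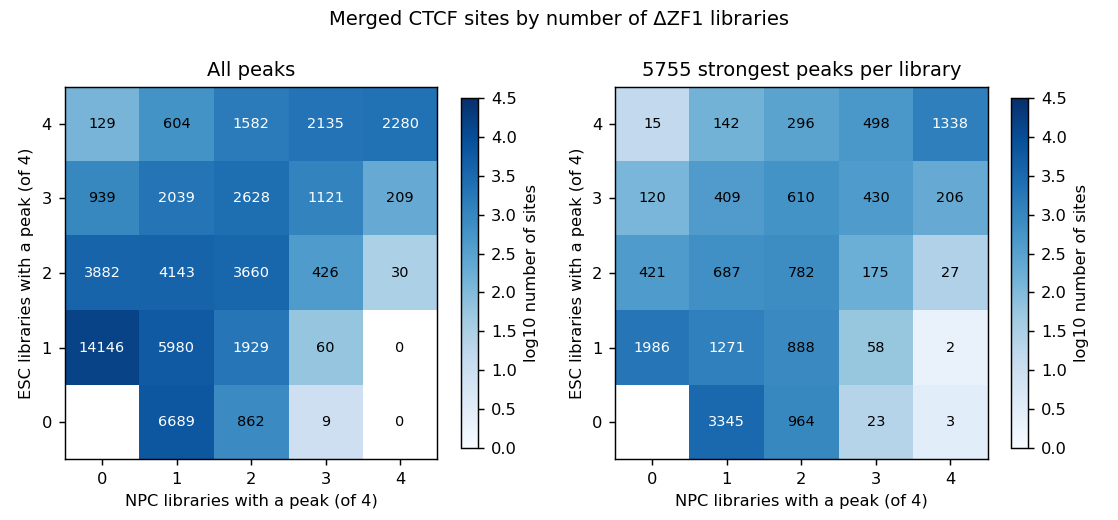
Number of merged sites by how many ESC-ΔZF1 libraries (vertical axis) and NPC-ΔZF1 libraries (horizontal axis) held a peak, for all peaks and for the 5755 strongest peaks per library (those of smallest q value), coloured by the log10 of the count. The upper left corner holds the 129 (left) and 15 (right) sites found in all ESC and no NPC libraries, the lower right corner the 0 and 3 of the opposite kind.

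Among the 129 sites found only in ESC-ΔZF1, the strongest lay in an intron of Stard13. Its fold enrichment over background was 15.3, 13.4, 13.6 and 7.45 in ESC replicates 1 to 4, at a median percentile of 78.4 within the lists. WT cells had a peak there in 4 of 4 ESC and 3 of 4 NPC libraries, and Smc3 peaks stood in both ESC-ΔZF1 and both NPC-ΔZF1 libraries. The next was 2126 bp upstream of the predicted gene Gm45623, at 10.96, 20.2, 13.1 and 5.95 fold, with WT peaks in 4 ESC and 2 NPC libraries. A site at a UTR of Atp2b4, which encodes a plasma membrane calcium pump, had 17.5, 6.10, 18.5 and 6.85 fold. In WT cells it was called in 2 of 4 ESC and all 4 NPC libraries. That site is 167 bp from an annotated TSS and held no motif.

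The remaining 7 of the 10 strongest showed the same moderate enrichment. They were at Cfap52, a ciliary protein gene, upstream of the predicted gene Gm5798, at Car3 (carbonic anhydrase 3), at Afg1l, at Msrb3 (methionine sulfoxide reductase), near 4930470P17Rik and in 1700065J11Rik. Their median percentiles ran from 69.1 to 74.0. The site at Msrb3 had 15.5, 13.3, 9.27 and 7.97 fold enrichment in ESC-ΔZF1, and that in 1700065J11Rik 17.9, 14.3, 9.56 and 7.25. The site near Gm5798 was called in all 4 WT NPC libraries at 8.05 to 13.7 fold, and the Cfap52 site in 1 of them at 5.38 fold. Across all 129 sites the median percentile was 47.1, against 91.7 in ESC-ΔZF1 for the 2280 sites called in all 8 libraries, and the highest of the 129 was 78.4.

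Of the 129, 121 (93.8%) were called in at least 1 WT NPC library and 12 (9.3%) in all 4, while 116 (89.9%) were called in at least 1 of the 2 E14 NPC libraries. Over the 6730 sites called in all 4 ESC-ΔZF1 libraries these shares were higher, at 99.6%, 75.3% and 93.0%. The 129 were also called less often in WT ESCs, where 26 of them (20.2%) had a peak in all 4 libraries, against 77.1% of the 6730. WT NPC libraries 1 to 4 held 82, 78, 99 and 20 of the 129 sites, in lists of 30555, 21339, 24908 and 15052 peaks. The 129 were chosen for having no NPC-ΔZF1 peak, so no test of these shares against NPC-ΔZF1 is given. Smc3 peaks overlapped 83 and 83 of the 129 sites in the NPC-ΔZF1 Smc3 libraries (64.3% in each) and 81 and 55 in the ESC-ΔZF1 ones (62.8% and 42.6%). For the 6730 sites called in all 4 ESC-ΔZF1 libraries these shares were 86.1% and 87.1% in NPCs and 71.0% and 59.2% in ESCs. The Rad21 lists were short, with 1306 to 6080 peaks, and met 2.33% and 5.43% of the 129 sites in ESC-ΔZF1 and 9.30% and 8.53% in NPC-ΔZF1. The shares for the 6730 sites were 8.603%, 13.6%, 24.2% and 29.4% in the same order.

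Several features of the 6730 ESC sites varied with the number of NPC-ΔZF1 libraries that also called them. The share within 1 kb of a TSS was 10.9%, 13.6%, 24.7%, 35.6% and 39.4% for sites called in 0, 1, 2, 3 and 4 NPC-ΔZF1 libraries. The share with a CTCF motif was 69.0%, 71.0%, 62.6%, 61.2% and 62.4% in the same order. At 0 and at 4 libraries, introns held 50.4% and 34.8% of the sites. The share with Smc3 in both NPC-ΔZF1 libraries was 58.9% at 0 and 89.5% at 4, and the share called in all 4 WT NPC libraries was 9.3% and 95.7%. The share called in all 4 WT ESC libraries rose likewise, from 20.2% to 96.0%. The strength of the sites in ESC-ΔZF1 moved along with these features, with median percentiles of 47.1, 56.9, 64.2, 76.3 and 91.7.

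**Figure D3:**
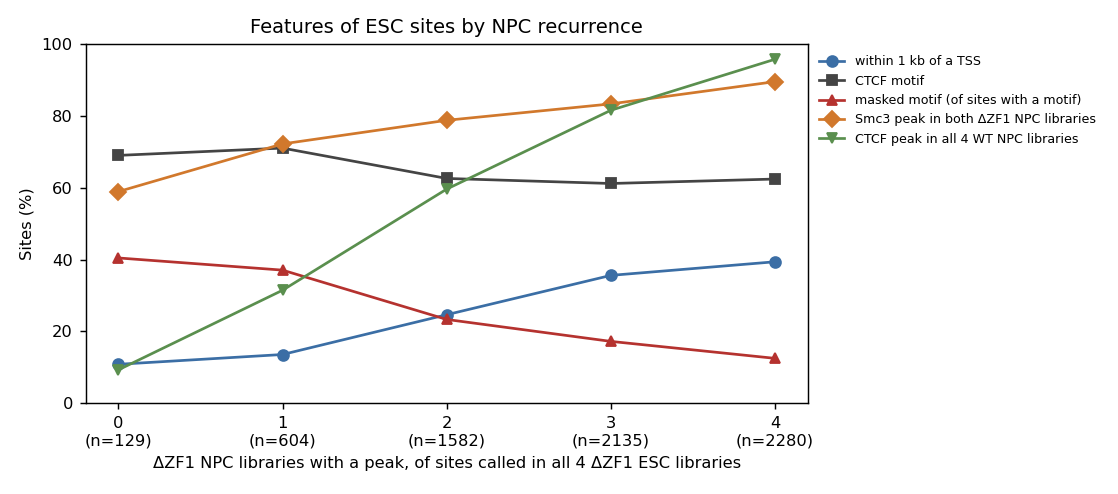
Percentage of sites with each feature (coloured lines) among sites called in all 4 ESC-ΔZF1 libraries, by the number of NPC-ΔZF1 libraries with a peak there. From 0 to 4 libraries the share near a TSS rises from 10.9% to 39.4%, and the share of motifs that lie in a masked repeat falls from 40.4% to 12.5%.

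Recurrence in NPCs was then measured on reproducible sites, those called in at least 3 of 4 libraries. Of 13666 reproducible ESC-ΔZF1 sites, 5745 were also reproducible in NPC-ΔZF1, or 42.0% (95% Wilson interval 41.2% to 42.9%, counting error only). In the opposite direction 5745 of 6270 reproducible NPC-ΔZF1 sites, or 91.6%, were reproducible in ESC-ΔZF1. At equal peak numbers the ESC sites recurred in 60.8% of cases and the NPC sites in 89.6%. The WT rescue gave 69.5% for 17506 ESC sites and 69.2% at equal numbers; whether these differ from the ΔZF1 shares was not tested. Single libraries weighed heavily on the ΔZF1 share. It was 18.3% without NPC-ΔZF1 replicate 4 and 20.4% without NPC-ΔZF1 replicate 2, and it reached 65.5% without ESC-ΔZF1 replicate 1, although with 3 libraries left a site had to be called in all of them. NPC-ΔZF1 replicates 1 to 4 held 50.3%, 58.1%, 31.9% and 85.0% of the 13666 ESC sites.

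Strong sites recurred far more often than weak ones. In 4 groups of equal size by median percentile in ESC-ΔZF1, from weakest to strongest, 13.1%, 26.4%, 46.2% and 82.4% of reproducible ESC sites were found again in NPC-ΔZF1. At equal peak numbers the groups gave 31.3%, 47.9%, 70.7% and 93.4%. Sites within 1 kb of a TSS recurred in 54.9% of cases (interval 53.3% to 56.5%) and sites farther away in 36.9% (36.0% to 37.9%). Over all sites the share was 41.7% (40.7% to 42.8%) with a motif and 42.6% (41.2% to 43.9%) without one, and these intervals overlap. Near a TSS sites with a motif recurred in 61.1% of cases and those without in 50.6%. Farther away the shares were 37.2% (36.1% to 38.4%) and 36.3% (34.6% to 38.0%), with overlapping intervals. Sites with Smc3 peaks in both ESC-ΔZF1 libraries recurred in 53.3% of cases, and sites with Smc3 in neither in 29.8%. Sites are not replicates of a condition, so these intervals cover counting error only.

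The word shared by Msrb3, 4930470P17Rik and 1700065J11Rik led to the repeats of the genome. Mouse B2 short interspersed elements are repeats known to carry CTCF motifs. CCAGAAGAGGGC was the most frequent 12-letter core among the motifs of the 129 ESC sites, and it was picked after these sequences had been seen. It made up 23 of 89 motifs (25.8%) at the sites found only in ESC-ΔZF1, 90 of 1423 (6.32%) at sites called in all 8 libraries, and 1378 of 8432 (16.3%) at all reproducible ESC-ΔZF1 sites. The lower-case masking of the mm10 sequence, which marks repeats without naming their family, gave the same order. Of the 89 motifs at sites found only in ESC-ΔZF1, 36 lay in masked sequence (40.4%, interval 30.9% to 50.8%), and of the 1423 at sites called in all 8 libraries 178 did (12.5%, 10.9% to 14.3%). The family of each repeat was not analysed here.

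Sites with a masked motif recurred less often than those with an unmasked one in each of the 4 strength groups. Of 2193 reproducible ESC-ΔZF1 sites with a masked motif, 561 (25.6%, interval 23.8% to 27.4%) were reproducible in NPC-ΔZF1, against 2956 of 6239 sites with an unmasked motif (47.4%, 46.1% to 48.6%). In the strongest group the shares were 59.5% (54.9% to 63.9%) and 88.8% (87.2% to 90.2%), and in the weakest 6.60% (4.84% to 8.93%) and 13.2% (11.4% to 15.3%). At equal peak numbers they were 43.7% (39.2% to 48.4%) and 60.9% (58.8% to 62.9%). WT cells showed the same order, with 51.7% of 3013 masked and 72.5% of 8399 unmasked ESC sites reproducible in WT NPCs. All 4 NPC-ΔZF1 libraries called fewer of the masked than of the unmasked sites, with 35.1% against 45.4%, 37.5% against 70.04%, 24.9% against 37.8%, and 79.6% against 83.3% in replicates 1 to 4. Sites that did not recur in the opposite direction were also richer in masked motifs. These made up 63 of 261 motifs (24.1%) at sites reproducible in NPC-ΔZF1 but not in ESC-ΔZF1. At all reproducible NPC-ΔZF1 sites they made up 624 of 3778 (16.5%). The matching shares for ESC-ΔZF1 sites were 33.2% and 26.0%. At the level of whole libraries the difference between cell types was not larger than the spread. Of the peaks with a motif, 44.4%, 23.4%, 42.2% and 26.3% had it in masked sequence in ESC-ΔZF1 replicates 1 to 4, and 29.7%, 17.5%, 22.7% and 41.4% in NPC-ΔZF1 (difference of means -6.25 percentage points, exact permutation test, p = 0.4). This share varied more between replicates than between cell types, and the part of library differences in the recurrence of masked sites was not tested.

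**Figure D4:**
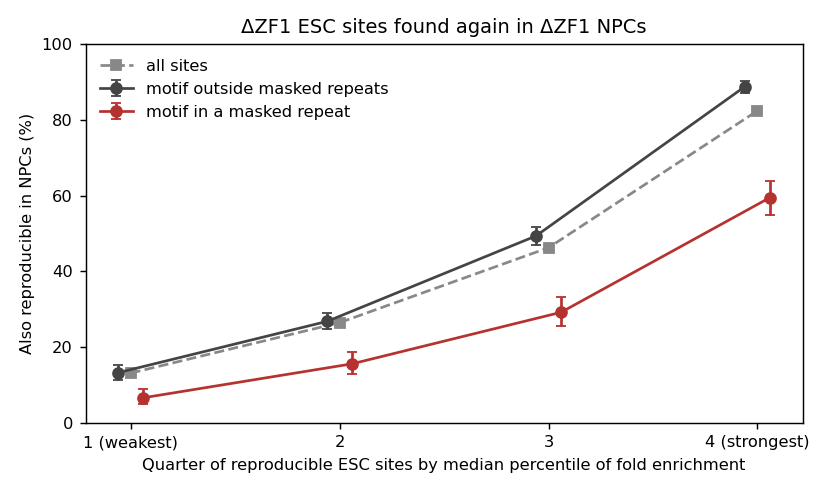
Percentage of reproducible ESC-ΔZF1 sites that were also reproducible in NPC-ΔZF1, by the 4 groups of ESC strength, for sites whose motif lies outside (dark) or inside (red) masked repeats and for all sites (grey dashed); bars are 95% Wilson intervals. The lines rise from the weakest to the strongest group, and masked motifs lie below unmasked ones in each, at 59.5% against 88.8% in the strongest.

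In the opposite direction, there were 525 sites reproducible in NPC-ΔZF1 but not in ESC-ΔZF1, and only 9 of them had no ESC-ΔZF1 peak. These 9 were called in replicates 1, 2 and 4 and not in replicate 3. All of them lay within 1 kb of a TSS, none held a CTCF motif, and none had a peak in the E14 NPC libraries. Over all 6270 reproducible NPC-ΔZF1 sites these shares were 37.1% near a TSS, 60.3% with a motif and 91.0% with an E14 NPC peak. At least 1 WT NPC library called 6 of the 9, against 99.8% of the 6270. An NPC-ΔZF1 Smc3 peak overlapped 6 of the 9, against 91.2%. The strongest of the 9 was in an exon of Bicdl1, which encodes an adaptor for vesicle transport, at 5.43, 4.37 and 4.85 fold. Others were at Usp38, a deubiquitinase gene, at 5.10, 5.26 and 4.37 fold, and at Elavl1, the gene of the RNA-binding protein HuR, at 4.58, 3.90 and 3.77 fold. Their median percentile within the NPC lists was 11.3, so they stood near the lower end of the lists. The Usp38 site had peaks in 2 WT NPC libraries and no WT ESC library.

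At equal peak numbers, the 3 sites found in all NPC-ΔZF1 and no ESC-ΔZF1 libraries lay at Cldn1, a tight junction gene, at Rnf144a, a ubiquitin ligase gene, and downstream of Eno1, which encodes the glycolytic enzyme enolase. They were named after their values had been seen. Each held a motif match, printed here because these are the only sites of this direction, from chr16:26371871-26371931, chr12:26415312-26415372 and chr4:150253007-150253067 of mm10, all on the minus strand.
Cldn1: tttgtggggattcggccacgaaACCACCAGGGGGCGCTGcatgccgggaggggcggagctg
Rnf144a: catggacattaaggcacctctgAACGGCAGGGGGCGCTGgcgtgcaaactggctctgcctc
Eno1: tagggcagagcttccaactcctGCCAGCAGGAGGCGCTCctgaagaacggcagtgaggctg
With all peaks the Cldn1 and Eno1 sites were called in all 8 libraries, and the Rnf144a site in all but ESC-ΔZF1 replicate 3. The Cldn1 site had 16.8, 12.5, 7.18 and 7.26 fold enrichment in ESC-ΔZF1 and 8.96, 13.9, 7.49 and 13.3 in NPC-ΔZF1, so the groups overlapped. In WT cells the 3 sites were called in all 8 libraries. Each of the 15 sites of the other direction was called in 1 to 3 NPC-ΔZF1 libraries when all peaks were used, and at 10 of the 15 the highest NPC-ΔZF1 fold lay above the lowest ESC-ΔZF1 fold. The strongest, an intergenic site far upstream of Gm16237, had 28.3, 16.4, 18.7 and 12.6 fold in ESC-ΔZF1 and 6.33, 8.44 and 9.99 fold in NPC-ΔZF1 replicates 1, 2 and 4. None of the NPC fold values reached the lowest ESC fold at that site. By percentile within the lists the groups overlapped, with NPC-ΔZF1 replicate 4 at 81.6 and ESC-ΔZF1 replicate 2 at 78.1.

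The 2280 sites called in all 8 libraries allowed a test of strength. Within each library the fold enrichment was ranked over these sites and turned into normal scores, on which limma was run, so that an effect of 1 is 1 SD of the library's scores. Before ranking, the median fold over these sites was 27.4, 23.4, 14.8 and 12.3 in ESC-ΔZF1 replicates 1 to 4. In NPC-ΔZF1 it was 10.5, 15.8, 9.99 and 15.9. Fold values given for single sites are not adjusted for this, so their overlap between groups can differ from that of ranks. With Benjamini-Hochberg adjustment at 0.05, limma called 0 of 2280 sites (0%) different between NPC-ΔZF1 and ESC-ΔZF1, with a smallest adjusted p of 0.230. At an unadjusted p under 0.05 there were 120 sites, 60 higher and 60 lower in NPC-ΔZF1, or 5.26%. The median effect was -0.01, and 5% of sites lay below -0.62 and 5% above 0.67. The median half-width of the 95% interval of a single site, before adjustment over sites, was 0.74. Changes smaller than that were mostly not detectable with 4 libraries per group, and larger ones could also go uncalled. Of the 2280 sites, 36 had an effect of more than 1 in size, the largest 1.82, and none was called. With replicate numbers as a block, limma gave 264 of the 2280 sites an unadjusted p under 0.05, 141 higher and 123 lower in NPC-ΔZF1. It still called 0, with a smallest adjusted p of 0.258. In replicates 1 and 4 alone 2623 of 9012 sites had such an unadjusted p in limma, with a smallest adjusted p of 0.0730. In replicates 2 and 3 alone 73 of 3175 did. limma also called 0 of 2122 sites (0%) for a difference between ΔZF1 and WT in the change with cell type. There, 46 sites had an unadjusted p under 0.05, and 170 with the block.

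The 5 sites with the highest median percentile over the 8 libraries, given as a description, were at Gdf15, a stress-induced cytokine gene of the TGF-beta family, Rap1gap, Nipsnap2, Cenpu, which encodes a centromere protein, and Exd1. The Gdf15 site had 423, 543, 274 and 204 fold enrichment in ESC-ΔZF1 replicates 1 to 4 and 92.8, 532, 127.9 and 191 in NPC-ΔZF1. Its percentile was 100 in the median of the ESC lists. The Cenpu site, 127 bp upstream of the gene's start, had 60.9 to 299.9 fold over the 8 libraries. Neither it nor the Exd1 site held a motif within 50 bp of the summit.

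The site of smallest p among the shared ones lay upstream of Upf1, the helicase of nonsense-mediated mRNA decay. It spans chr8:70360661-70361265, is intergenic, 7687 bp upstream of the Upf1 start, and held no CTCF motif. Its window of 61 bp, chr8:70360935-70360995 on the plus strand, is printed as the sequence of the site with the smallest p.
Upf1: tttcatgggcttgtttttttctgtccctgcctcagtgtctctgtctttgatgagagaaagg
Fold enrichment was 27.0, 20.7, 19.7 and 9.56 in ESC-ΔZF1 replicates 1 to 4 and 6.10, 5.89, 5.66 and 6.37 in NPC-ΔZF1. All NPC values were below all ESC values, with ESC percentiles of 83.6 to 96.7 and NPC percentiles of 7.14 to 49.4. The effect was -1.82 ± 0.31 (SE), with an adjusted p of 0.230 in limma. When all 16 rescue libraries shared 1 estimate of the spread, limma called this site alone, with an effect of -1.83 ± 0.27 (SE) and an adjusted p of 0.00844. In WT cells it had 51.6, 18.8, 24.7 and 12.7 fold in ESCs and 18.0, 20.8, 19.5 and 10.1 fold in NPCs, so the groups overlapped. The difference between genotypes in its change was -1.69 ± 0.39 (SE) and did not pass the adjustment over 2122 sites (limma adjusted p = 0.817, unadjusted p = 0.000431).

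The other 4 sites of smallest p among those lower in NPC-ΔZF1 lay near Gm26187, in Mrps31, a mitochondrial ribosomal protein gene, in the predicted gene Gm13529 and in Gm5206. Their effects ran from -1.39 ± 0.26 near Gm26187 to -0.94 ± 0.28 at Gm5206 (SE), with limma adjusted p values of 0.268 near Gm26187 and 0.909 at the other 3. Near Gm26187 fold enrichment was 29.9, 22.5, 14.6 and 12.6 in ESC-ΔZF1 and 5.85, 10.5, 6.20 and 7.17 in NPC-ΔZF1, without overlap. On the higher side the 5 sites were downstream of Eno1, at Ubqln4, which encodes a ubiquitin-binding shuttle protein, at Gm12930, near Spata6 and in Cacna1d, a calcium channel gene. Their effects ran from 0.93 ± 0.28 near Spata6 to 1.71 ± 0.47 at Gm12930 (SE), all with a limma adjusted p of 0.909. The ranges of fold enrichment overlapped at each of these 5. At Eno1, for example, it was 10.7, 12.7, 7.16 and 4.97 in ESC-ΔZF1 and 7.97, 10.3, 10.9 and 12.6 in NPC-ΔZF1. The normal scores at Eno1, on which limma was run, did not overlap. They ran from -2.38 to -1.11 in ESC-ΔZF1 and from -0.88 to 0.21 in NPC-ΔZF1.

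**Figure D5:**
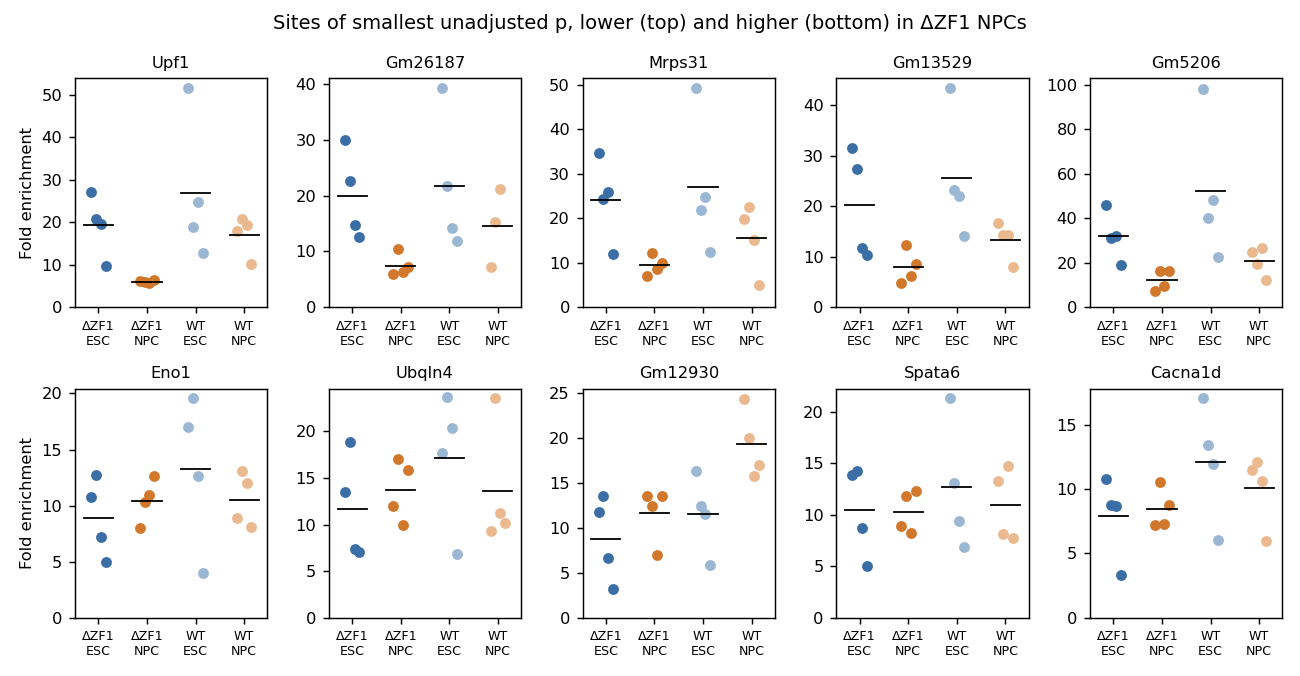
Fold enrichment at the 5 sites of smallest unadjusted p among those lower (top) and higher (bottom) in NPC-ΔZF1, 1 point per library and a line at the mean, for ΔZF1 and WT ESCs and NPCs; each panel starts at 0 on a linear axis. At the Upf1 site the NPC-ΔZF1 points lie between 5.66 and 6.37, below all ESC-ΔZF1 points, while at Eno1 the ΔZF1 groups overlap in fold.

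Sites at genes of the 2 cell states were examined as lists, each gene with its body and 1 kb upstream. Of 28 pluripotency genes, 24 held a site, and 7 of their 15 reproducible ESC-ΔZF1 sites (46.7%) recurred in NPC-ΔZF1. For 32 neural progenitor genes, of which 31 held a site, 6 of 13 reproducible ESC sites (46.2%) recurred. Genes of neurons and glia gave 9 of 16 (56.2%), mesoderm, endoderm and trophoblast genes 8 of 11 (72.7%), signalling genes 34 of 58 (58.6%), genes of cohesin and chromatin architecture 7 of 13 (53.8%), Hox genes 7 of 19 (36.8%), imprinted genes 10 of 15 (66.7%) and housekeeping genes 3 of 4 (75%). The share over all sites was 42.0%. None of the lists held one of the 129 sites found only in ESC-ΔZF1, and limma called 0 of the shared sites in each list.

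Sites called in all ESC-ΔZF1 and at most 1 NPC-ΔZF1 library numbered 733 of 6730 over all genes (10.9%). The lists held 2 of 9 such sites for genes of neurons and glia, 1 of 10 for mesoderm, endoderm and trophoblast genes, 2 of 37 for signalling genes and 0 in the other lists. Rbfox3, the neuronal splicing factor NeuN, held the 2 of its list in introns. The first (chr11:118507772-118508398) had 12.9, 11.4, 10.5 and 7.06 fold in ESC-ΔZF1 and 7.01 in NPC-ΔZF1 replicate 4, and the second (chr11:118534638-118535011) had 8.57, 9.81, 4.05 and 4.87 and then 9.71 in NPC-ΔZF1 replicate 2. An intron site of Gli1, a transcription factor of Hedgehog signalling, had 14.8, 8.14, 15.5 and 5.30 fold in ESC-ΔZF1 and 7.19 in NPC-ΔZF1 replicate 4. The other sites were at Foxa1, a pioneer factor of endoderm, and in the annotated body of the receptor gene Fgfr2, 2349991 bp from its farthest annotated start. Elsewhere in Gli1, sites such as chr10:127338800-127339729 were called in all 8 libraries. That one had 40.3, 52.8, 19.7 and 14.4 fold in ESC-ΔZF1 and 10.4, 32.8, 14.6 and 7.06 in NPC-ΔZF1.

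In the lists without such a site, the 2 genes of largest difference in number of libraries were taken, with 9 and 10 sites tied at that difference in the pluripotency and neural progenitor lists. Pou5f1, the core pluripotency factor, had an intron site called in 4 ESC-ΔZF1 and 2 NPC-ΔZF1 libraries, at 25.6, 13.2, 18.0 and 6.59 fold and at 8.51 and 10.0 fold in NPC-ΔZF1 replicates 3 and 4. A site of Nodal, a ligand of the TGF-beta family, was called in 2 ESC-ΔZF1 and no NPC-ΔZF1 library. At Sox3, a transcription factor of neural progenitors, a site in the exon without a motif was called in no ESC-ΔZF1 and 2 NPC-ΔZF1 libraries, at 7.02 and 9.69 fold. WT cells had no peak there. Esco1, a cohesin acetyltransferase gene, Hoxc5 and Gnas each held a site called in 3 ESC-ΔZF1 and no NPC-ΔZF1 libraries, with WT NPC peaks in 1, 1 and 3 libraries. Of the other genes in this group, Zfp143 had a site in 3 ESC-ΔZF1 and 1 NPC-ΔZF1 libraries, Commd1 one in 4 and 2, and Hoxd11, Hprt and Pgk1 one each in 2 and 0. Such patterns were common. Of all 55482 sites, 939 were called in 3 ESC-ΔZF1 and no NPC-ΔZF1 libraries and 3882 in 2 and 0. The pattern of the Sox3 site, no ESC-ΔZF1 and 2 NPC-ΔZF1 libraries, was seen at 862.

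At the loci the study engineered or displayed, the strongest CTCF site in Podxl, a sialomucin gene, lies in an intron (chr6:31525087-31525946) and was called in 3 ESC-ΔZF1 libraries at 14.4, 19.9 and 4.95 fold and in 2 NPC-ΔZF1 libraries at 11.99 and 5.04 fold. It was called in all 8 WT libraries. Grb10, an imprinted adaptor gene of insulin signalling, held a site in all 8 ΔZF1 libraries (chr11:12025536-12026328), at 24.2, 33.3, 13.5 and 10.5 fold in ESC-ΔZF1 and 9.26, 18.0, 15.1 and 17.4 in NPC-ΔZF1. A second Grb10 site (chr11:11973288-11973829) was called in all 4 ESC-ΔZF1 libraries at 6.18 to 15.1 fold and in 2 NPC-ΔZF1 libraries at 8.38 and 4.99 fold. The start of Ctcf itself carried a site in all 8 libraries (chr8:105636027-105637721), at 76.0, 40.8, 31.4 and 44.8 fold in ESC-ΔZF1 and 48.2, 19.6, 19.1 and 107.6 in NPC-ΔZF1. These groups overlapped. Of the 129 sites found only in ESC-ΔZF1, 1 lies upstream of Dlx3, a homeobox gene whose promoter the study displayed; it was singled out after its values had been seen. That site (chr11:95118297-95118881) had 7.19, 9.85, 9.53 and 2.93 fold in ESC-ΔZF1, held no motif at the cut used, and was called in all 8 WT libraries. In ESC-ΔZF1 replicate 4 it stood at percentile 2.64 of the list. Smc3 peaks overlapped it in 2 ESC-ΔZF1 and 2 NPC-ΔZF1 libraries, and Rad21 peaks in 1 and 2.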

How the data were processed

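CTCF ChIP-seq was measured in 4 ESC-ΔZF1 and 4 NPC-ΔZF1 libraries, with the WT rescue, E14, Smc3 and Rad21 libraries used for comparison. The authors aligned paired-end reads to mm10 (Bowtie2), used SAMtools, Picard and bedtools to drop alignments of low quality, duplicates and blacklist regions, and ran MACS2 on each library at q of 0.01. The sources used here state neither the versions nor the input of each library. The deposited lists give the fold enrichment, a ratio of pileup to local background, and −log10 p and q values, and no counts, so no count test was possible. Fold and p together gave the background coverage at the summits, of which the lowest was kept per library.

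Sites were merged, annotated with GENCODE vM21 and GRCm38.p6, and compared as the text states, with Python 3.11.15, R 4.3.3 and limma 3.58.1. The script for limma was tested on simulated data. Named were the 10 strongest sites of each switch direction, the 5 of smallest p in each direction, the 5 strongest shared sites, genes of the lists with a site in all libraries of one cell type and at most 1 of the other (else the 2 of largest difference), and Podxl, Grb10 and Ctcf. Members and lists were chosen with earlier results of these data known. Same-numbered replicates deviated together at shared sites (correlations of 0.35, 0.59, 0.22 and 0.56 for numbers 1 to 4), so the numbers in the labels were taken to pair the samples. Differently numbered replicates correlated at 0.40 (ESC 4 with NPC 1), 0.25 (ESC 1 with NPC 4), 0.19 (ESC 2 with NPC 3) and -0.16 (ESC 3 with NPC 2) within the sets 1 and 4, and 2 and 3. Peak names inside both replicate 4 lists carry the number 2, and the labels were followed. Whether the 4 libraries of a group came from separate cultures is stated by the study only as biological replicates. Alternatives covered the peak threshold, merging, definitions, equal peak numbers, each library left out, and the replicate block. The lists of the polyA lines were not used here.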

Additional observations from a re-analysis of the deposited data

Results flagged for a closer look

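Of 48 groups of 4 libraries examined, 4 held a library farther from the others than Dixon's 95% value of 0.829 allows; chance gives about 1 in 20. The ESC-ΔZF1 list of replicate 1 held 45941 peaks, where the next held 17092. ESC-ΔZF1 replicate 4 had 41.6% of its peaks within 1 kb of a TSS, and the next 24.6%. At Rap1gap, ESC-ΔZF1 replicate 1 had a fold enrichment of 423, and the next library 205. At Gm12930, NPC-ΔZF1 replicate 3 had 6.97 fold, and the next lowest 12.4.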

How the results depend on the processing

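The lists hold no counts, so strength could be compared only by rank, and a peak missing from a shallow list may be present below the threshold. The count of sites only in NPC-ΔZF1 (0) was 3 at equal peak numbers, 880 in replicates 1 and 4 alone, 56 in replicates 2 and 3 alone, 1 with summits merged within 100 bp, and 0 to 9 with each library left out, the 9 without NPC-ΔZF1 replicate 3. The count only in ESC-ΔZF1 (129) was 733 when 1 NPC library was allowed, 15 at equal numbers, 1439 and 2445 in the replicate sets, and 127 to 706 with each library left out. It was 270, 350 and 706 without ESC-ΔZF1 replicates 2, 3 and 4, and 249 and 580 without NPC-ΔZF1 replicates 2 and 4. The replicate sets asked for calls in 2 libraries of a group instead of 4, a looser rule. The retained share (42.0%) was 54.5% for sites in at least 2 of 4 libraries, 60.8% at equal numbers, 58.5% in replicates 1 and 4, 34.2% in replicates 2 and 3, 40.4% with merged summits, and 18.3% to 65.5% with each library left out. It was 24.7%, 20.4%, 33.2% and 18.3% without NPC-ΔZF1 replicates 1 to 4. limma called 1 site with all 16 libraries and 0 in each other alternative. The difference in peak number kept its direction, from -1.19 to -0.35, and passed the threshold without NPC-ΔZF1 replicate 4 only. The motif difference reversed to 1.89 percentage points in replicates 2 and 3 alone, and over the libraries left out it ran from -11.4 to 0.82, the latter without NPC-ΔZF1 replicate 1. The similarity difference, -0.0086, reversed to 0.0018 at equal numbers and 0.0223 in replicates 2 and 3 alone, and ran from -0.0339 to 0.0311 with each library left out. The masked share, a result added after the data were seen, went from -6.25 points to 0.21 in replicates 1 and 4 alone, -12.7 in replicates 2 and 3 alone and -2.16 at equal peak numbers, and ran from -10.8 (without NPC-ΔZF1 replicate 4) to -2.81 (without NPC-ΔZF1 replicate 2) with each library left out. The TSS difference of 8.73 points ran from 2.69 to 13.2 in the same way. With the replicate block (exact sign-flip test of 4 pairs, smallest p 0.125), the difference in peak number was -0.73 at p = 0.375, limma called 0 sites, and the similarity difference turned to 0.0030, at p = 0.5 (an alternative added after the data were seen); the block changed no call. The causes were not tested.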
